A study of Mus musculus with 2 samples.

Results

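A set of 10 genes known to be induced by glucocorticoid hormones was followed in the mouse adrenal gland: Fkbp5, Tsc22d3, Sgk1, Zbtb16, Mt1, Mt2, Pdk4, Cdkn1a, Ddit4 and Errfi1. They were taken from a list of names, which uses no measured value but was chosen with earlier results of these data known. All 10 symbols matched a gene of GENCODE M21, out of 55536 annotated genes. The material was total RNA of the whole adrenal gland from male B6CASTF1/J mice (a first-generation cross of the C57BL/6J and CAST/EiJ strains), aged 8 to 10 months and supplied by The Jackson Laboratory. There was 1 group with 2 libraries, replicate 2 (animal 4) and replicate 1 (animal 2), each made from 300 ng of RNA with ERCC spike-ins. Both libraries carry the same donor entry in the labels. The labels give no hormone treatment, time of collection or control group, so the data describe levels in each gland and the spread between both glands. A ratio between replicate 2 and replicate 1 compares these libraries, not conditions.

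Glucocorticoids, chiefly corticosterone in mice, are made in the adrenal cortex. They bind the glucocorticoid receptor (Nr3c1), which waits in the cytosol in a complex with the chaperone Hsp90 and its cochaperones, then enters the nucleus and binds palindromic glucocorticoid response elements in DNA. Its target genes curb inflammation, slow growth signalling, shift cells from glucose to fatty acid use and dampen the receptor itself.

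The metallothioneins Mt2 and Mt1 had the highest mean TPM of the 10 genes, although Sgk1 exceeded Mt1 in replicate 1, and they lie near each other on chromosome 8. Both encode small, cysteine-rich proteins that bind zinc and copper, and both are induced by metals as well as by glucocorticoids. Their coding sequences are shown because the cysteine codons, in capitals, lie at shared positions. They are the sense strand of GENCODE M21 transcripts, from the start codon to the codon before the stop, and span chr8:94179311-94180190 for Mt1-201 and chr8:94172848-94173424 for Mt2-201 (mm10, plus strand, introns removed).
Mt1-201 coding sequence: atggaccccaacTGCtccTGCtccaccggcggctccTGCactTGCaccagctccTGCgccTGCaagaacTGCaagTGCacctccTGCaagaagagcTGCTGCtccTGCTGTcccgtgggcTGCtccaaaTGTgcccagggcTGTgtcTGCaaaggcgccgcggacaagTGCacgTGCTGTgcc
Mt2-201 coding sequence: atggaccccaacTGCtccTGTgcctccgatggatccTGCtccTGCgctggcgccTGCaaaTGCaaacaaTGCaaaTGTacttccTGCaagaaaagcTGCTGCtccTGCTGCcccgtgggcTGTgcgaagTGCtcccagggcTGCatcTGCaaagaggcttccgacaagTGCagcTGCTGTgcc
Each had 61 codons (183 bases), of which 20 were cysteine codons, and all 20 stood at the same codon number in both genes. The coding sequences were identical at 145 of 183 bases (79.2%). The longest run that the full transcripts shared was 20 bases. The deposited posterior SD of the gene count, the quantifier's own measure of its uncertainty, was 0 for all 10 genes in both libraries.

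The promoters of both metallothioneins are shown next, because 7-letter metal response elements and a glucocorticoid response element could be searched in them. They are RefSeq windows of GRCm38.p6, from 250 bases before to 50 bases after the RefSeq start site. Capitals mark the metal response element core, searched on both strands as TGCACNC or TGCGCNC, and in Mt1 also the earlier and longer match to the glucocorticoid response element, searched as GNACA, any 3 bases and TGTNC. These motifs did not overlap. The windows are chr8:94178839-94179138 for Mt1 and chr8:94172368-94172667 for Mt2, both on the plus strand.
Mt1 promoter: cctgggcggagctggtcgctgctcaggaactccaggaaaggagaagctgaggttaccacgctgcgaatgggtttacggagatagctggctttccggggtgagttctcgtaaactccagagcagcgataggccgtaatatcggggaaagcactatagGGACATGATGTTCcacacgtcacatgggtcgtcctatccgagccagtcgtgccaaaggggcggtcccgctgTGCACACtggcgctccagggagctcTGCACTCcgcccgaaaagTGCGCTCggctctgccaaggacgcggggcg
Mt2 promoter: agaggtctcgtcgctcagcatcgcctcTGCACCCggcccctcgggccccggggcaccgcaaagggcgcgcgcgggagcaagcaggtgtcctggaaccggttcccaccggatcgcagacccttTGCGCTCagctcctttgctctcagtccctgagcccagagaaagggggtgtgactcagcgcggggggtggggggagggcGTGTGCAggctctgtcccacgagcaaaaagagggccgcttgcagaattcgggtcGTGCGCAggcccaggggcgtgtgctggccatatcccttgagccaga
The Mt1 window held 3 metal cores and 1 glucocorticoid match, GGACATGATGTTC, whose leftmost base lay at position -94. The Mt2 window held 4 metal cores and no glucocorticoid match. At least 1 metal core was present in 25.7% of 32841 RefSeq windows of the same length, and 3 or more in 1.97%. The glucocorticoid letters were present in 0.475% of them. Such matches describe the letters only.

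The Sgk1 gene, for a kinase, has several start sites, and the searched window of 1 of them holds a full palindrome. The window around the start of Sgk1-202 (chr10:21993640-21993939, plus strand, GRCm38.p6) is shown with the match in capitals, because usage of this start is compared with that of the others further on.
Sgk1 promoter at the Sgk1-202 start: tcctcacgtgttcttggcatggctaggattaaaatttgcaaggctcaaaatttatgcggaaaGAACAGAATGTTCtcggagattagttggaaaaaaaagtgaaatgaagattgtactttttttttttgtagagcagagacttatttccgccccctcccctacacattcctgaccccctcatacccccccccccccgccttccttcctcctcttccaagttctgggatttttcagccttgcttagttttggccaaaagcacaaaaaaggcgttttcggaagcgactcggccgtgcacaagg
The match GAACAGAATGTTC began at position -188. It also fulfilled the stricter form GAACA, any 3 bases and TGTTC, which 0.0579% of the RefSeq windows held. RefSeq gave 18 windows for 9 of the 10 genes, and the glucocorticoid letters were found in 2 of them, those of Mt1 and of the Sgk1-202 start. No match says only that these letters were not in that window.

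All 10 genes were detected, meaning at least 1 TPM (transcript abundance per length, on a scale with a fixed total in each library) in both libraries. Their median level was 34.65 TPM in replicate 2 and 25.4 TPM in replicate 1 (30.0 ± 6.54 TPM, SD, n = 2). Summed over the 10 genes, the level was 396.8 TPM in replicate 2 and 397.6 TPM in replicate 1. Without Pdk4 the sum was 366 TPM in replicate 2 and 393 TPM in replicate 1. The median was then 38.5 TPM in replicate 2 and 32.8 TPM in replicate 1. Detection was no mark of these genes, since 12385 of 22015 nuclear protein-coding genes also passed it.

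**Figure D1:**
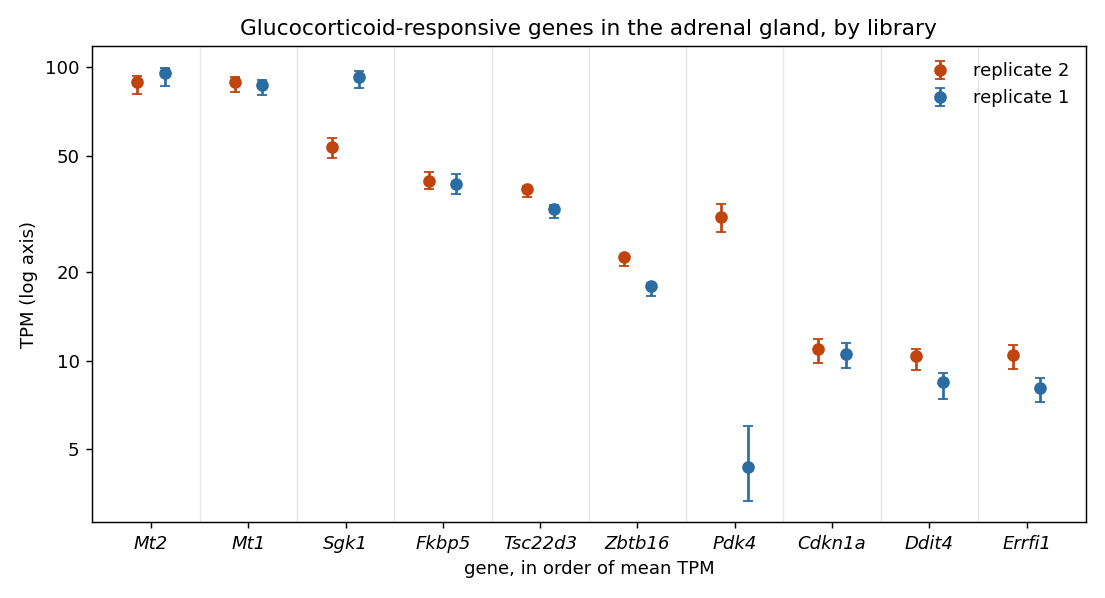
Level of each gene in TPM on a log axis, replicate 2 left of replicate 1, in order of mean TPM. Bars are the credibility intervals deposited with the TPM. The libraries lie close together for most genes, while Sgk1 is lower in replicate 2 and Pdk4 stands at 30.8 TPM in replicate 2 and 4.33 TPM in replicate 1.

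By mean TPM the order was Mt2, Mt1, Sgk1, Fkbp5, Tsc22d3, Zbtb16, Pdk4, Cdkn1a, Ddit4 and Errfi1. Neighbours in this order did not differ beyond their spread, in that the values of both libraries overlapped, for Mt1 and Sgk1, for Zbtb16 and Pdk4, for Pdk4 and Cdkn1a, and for Ddit4 and Errfi1. Mt2 and Mt1 did not overlap, but their nearest values were 89.42 TPM and 89.35 TPM, both in replicate 2. Among nuclear protein-coding genes the ranks ran over a wide range, with Mt2 at 599 and Errfi1 at 7621.

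For the ratio between the animals, expected counts (estimated reads per gene) were scaled by TMM and given with an interval for counting error. A gene counted as differing where it had a mean of at least 100 counts, was at least 2-fold apart and had an interval that excluded equality. By this rule 1 of the 10 genes, Pdk4, was higher in replicate 2, where the background was 2.39% of 12853 nuclear genes. None of the 10 was lower in replicate 2, where the background was 1.15%, and the background in either direction was 3.54%. At a 1.5-fold limit Pdk4 was again the only higher gene (background 6.19%), and Sgk1 was lower (background 3.90%, and 10.1% in either direction). On the log2 scale of CPM + 1 (counts relative to the library total) the median ratio was 0.03, with 5 genes above and 5 below 0, against 0.0013 over all nuclear genes tested. Without Pdk4 the median was -0.03.

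**Figure D2:**
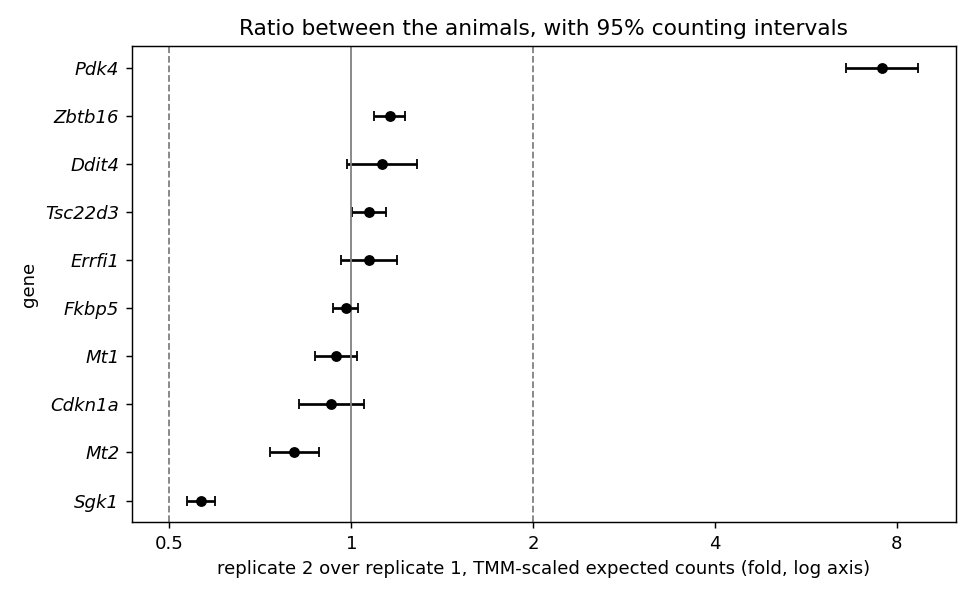
Fold of replicate 2 over replicate 1 for each gene on a log axis, from TMM-scaled expected counts, with 95% intervals that cover counting error only. The solid line marks equality and the dashed lines 2-fold. Pdk4 at 7.55 is the only gene past a dashed line, and Sgk1 at 0.564 is the lowest.

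Fkbp5 encodes an Hsp90 cochaperone that lowers the hormone affinity of the receptor and so closes a feedback loop. It stood at 40.9 TPM in replicate 2 and 40.1 TPM in replicate 1 (chromosome 17, 28399094 to 28517527, minus strand, ENSMUSG00000024222.17). Its counts were 3776 in replicate 2 and 3288 in replicate 1, a scaled ratio of 0.979 (0.934 to 1.03). The libraries were thus nearly level, and the sign of the log2 ratio depended on the scaling, above 0 in 3 settings and below 0 in 4. Most of its RNA came from Fkbp5-201, with 76.9% of the gene's TPM in replicate 2 and 77.3% in replicate 1. The processed transcript Fkbp5-203 took 13.49% in replicate 2 and 14.04% in replicate 1. Fkbp5-202, a coding transcript with an upstream start, took 7.69% in replicate 2 and 1.96% in replicate 1. By kallisto the gap was smaller, with 3.16% in replicate 2 and 2.04% in replicate 1 for Fkbp5-202, while Fkbp5-201 took 55.5% in replicate 2 and 64.3% in replicate 1. Of the 4 annotated genes that overlap Fkbp5, those on its strand, AC154912.3 and AC154912.5, had at most 46 counts.

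Tsc22d3 encodes GILZ, a leucine zipper protein that restrains inflammatory transcription factors. It stood at 38.5 TPM in replicate 2 and 32.8 TPM in replicate 1 (chromosome X, 140539528 to 140600659, minus strand, ENSMUSG00000031431.13). The scaled count ratio was 1.07 (1.00 to 1.14), just above equality. Its transcripts differed more than its total. The coding transcript Tsc22d3-201 took 51.0% of the gene's TPM in replicate 2 and 62.4% in replicate 1. Tsc22d3-202, annotated as a processed transcript, took 25.9% in replicate 2 and 14.4% in replicate 1, with 506 counts in replicate 2 and 224 counts in replicate 1. By the kallisto-format table this transcript had 37.0% in replicate 2 and 16.1% in replicate 1, so both quantifiers put its share higher in replicate 2. The coding transcript Tsc22d3-203, with the most upstream start, held 19.7% in replicate 2 and 18.9% in replicate 1, and by kallisto 30.1% in replicate 2 and 27.2% in replicate 1. By kallisto Tsc22d3-201 took 29.3% in replicate 2 and 47.2% in replicate 1, so that Tsc22d3-202 led in replicate 2 and Tsc22d3-201 in replicate 1.

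Zbtb16 encodes PLZF, a zinc finger repressor of transcription. It stood at 22.5 TPM in replicate 2 and 18.0 TPM in replicate 1 (chromosome 9, 48654297 to 48836222, minus strand, ENSMUSG00000066687.5). The scaled count ratio was 1.16 (1.09 to 1.23), which excludes equality by counting error but lies under both limits. It has 2 coding transcripts, and Zbtb16-201 took 62.6% in replicate 2 and 61.2% in replicate 1.

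The metallothioneins were close to each other and between the animals. Mt2 stood at 89.4 TPM in replicate 2 and 95.4 TPM in replicate 1 (chromosome 8, 94172664 to 94173568, plus strand, ENSMUSG00000031762.7). Mt1 stood at 89.35 TPM in replicate 2 and 87.3 TPM in replicate 1 (chromosome 8, 94179082 to 94180327, plus strand, ENSMUSG00000031765.8). The ratio of Mt2 to Mt1 in TPM was 1.00 in replicate 2 and 1.09 in replicate 1, near parity in each gland. Replicate 2 over replicate 1 gave 0.805 (0.733 to 0.883) for Mt2 and 0.943 (0.870 to 1.02) for Mt1. Mt2 was therefore somewhat lower in replicate 2 by counts, while the interval of Mt1 included equality.

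Within Mt2 the leading transcript differed between the libraries, the only such case among the 10 genes by RSEM. Mt2-202, a shorter transcript annotated as coding, took 64.99% of the gene's TPM in replicate 2 and 47.03% in replicate 1. Its annotated start, 94172860, lies inside the coding sequence of Mt2-201, which begins at 94172848, so it lacks that start codon. Mt2-201 took 35.01% in replicate 2 and 52.97% in replicate 1. By kallisto Mt2-201 led in both libraries, with 53.1% in replicate 2 and 69.4% in replicate 1. The order of the 2 transcripts thus depended on the quantifier, and the lower share of Mt2-201 in replicate 2 did not. Mt1 was nearly all Mt1-201, with 93.4% in replicate 2 and 93.3% in replicate 1. Of their relatives, Mt3 stood at 4.15 TPM in replicate 2 and 4.87 TPM in replicate 1, and Mt4 was listed at 0 in both. Mtf1, the factor that binds metal response elements, stood at 12.6 TPM in replicate 2 and 11.9 TPM in replicate 1, and the zinc exporter Slc30a1 at 7.59 TPM in replicate 2 and 7.15 TPM in replicate 1.

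Sgk1 encodes a serine/threonine kinase that both glucocorticoids and aldosterone induce and that keeps sodium channels at the cell surface. It stood at 53.6 TPM in replicate 2 and 92.65 TPM in replicate 1 (chromosome 10, 21882184 to 21999903, plus strand, ENSMUSG00000019970.15). Counts were 2347 in replicate 2 and 3546 in replicate 1, a scaled ratio of 0.564 (0.535 to 0.595), and 235 of 12853 tested genes (1.83%) had a lower ratio. It was thus lower in replicate 2, past the 1.5-fold limit but not the 2-fold limit. Kallisto gave 57.3 TPM in replicate 2 and 100.04 TPM in replicate 1, the same direction. In whole-gland RNA, fewer cells of a type and less RNA per cell cannot be told apart.

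The start sites of Sgk1 did not differ alike between the animals. Transcripts that start within 21994666 to 21994910, led by Sgk1-201, summed to 23.0 TPM in replicate 2 and 52.9 TPM in replicate 1. Sgk1-202, whose window holds the palindrome printed above, stood at 7.35 TPM in replicate 2 and 8.47 TPM in replicate 1. The palindrome also lies upstream of the Sgk1-201 start at 21994666, beyond the 250 bases searched there. Its part in the use of either start was not tested. The start at 21978672, of Sgk1-210 and Sgk1-213, summed to 19.4 TPM in replicate 2 and 23.0 TPM in replicate 1. So the difference between the animals lay mostly in the Sgk1-201 start, which took 42.9% of the gene's TPM in replicate 2 and 57.1% in replicate 1. By kallisto this start summed to 34.8 TPM in replicate 2 and 62.75 TPM in replicate 1, while Sgk1-202 stood at 5.05 TPM in both. The share of the Sgk1-201 start by kallisto, however, was 60.8% in replicate 2 and 62.7% in replicate 1, so that the difference in share was not found by both quantifiers. The quantifiers also disagreed on the leading transcript, Sgk1-201 by RSEM and the retained intron transcript Sgk1-209 by kallisto. Sgk1-209 is 347 bases long and had 37.1 expected counts in replicate 2 and 116.2 in replicate 1 by RSEM. Of its paralogs, Sgk3 stood at 3.49 TPM in replicate 2 and 4.01 TPM in replicate 1, and Sgk2 at 0.02 TPM in replicate 2 and 0.31 TPM in replicate 1. Sgk1 exceeded Sgk3 by 15.4 times in replicate 2 and 23.1 times in replicate 1.

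**Figure D3:**
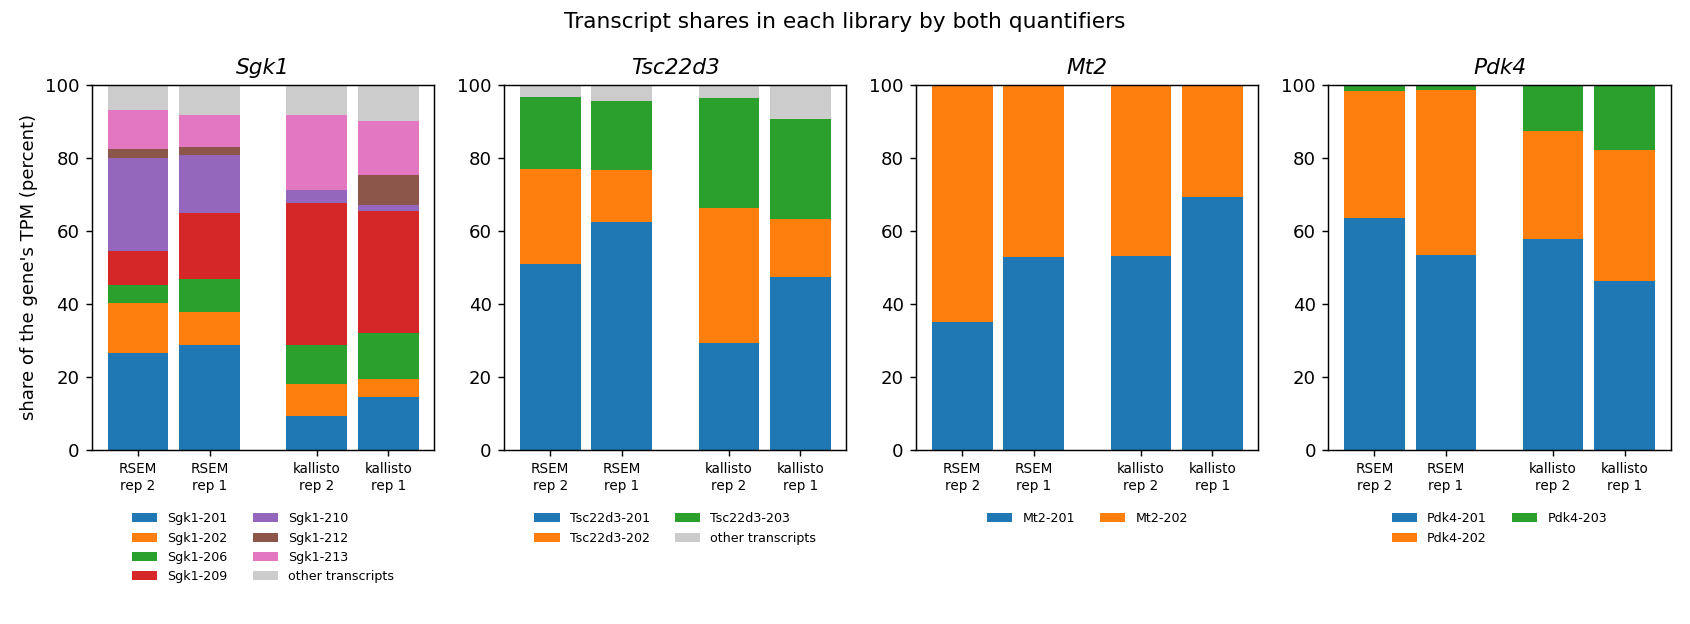
Share of each gene's TPM taken by its transcripts, in percent, for Sgk1, Tsc22d3, Mt2 and Pdk4, replicate 2 left of replicate 1 within each quantifier. Transcripts under 8% in all 4 tables are summed as other transcripts. Mt2-201 is lower in replicate 2 by both quantifiers, and Tsc22d3-202 higher.

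Pdk4 encodes a kinase that inhibits the pyruvate dehydrogenase complex and so spares glucose. It differed most between the animals. It stood at 30.8 TPM in replicate 2 and 4.33 TPM in replicate 1 (chromosome 6, 5483351 to 5496309, minus strand, ENSMUSG00000019577.6). Counts were 2100 in replicate 2 and 237 in replicate 1, a scaled ratio of 7.55 (6.60 to 8.68). Of 12853 tested genes, 49 had a higher ratio (0.381%). The other 9 genes ran between 0.564 and 1.16. Its mean of 17.6 TPM had an SD of 18.7 (n = 2), so the mean describes neither gland. Pdk4-201, its longest transcript, took 63.4% of TPM in replicate 2 and 53.4% in replicate 1. By counts it took 94.8% in replicate 2 and 92.4% in replicate 1, since the retained intron transcript Pdk4-202 is only 412 bases long and weighs more per length.

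Markers of fat cells were higher in replicate 2, as Pdk4 was. The 9 markers of white and general adipocytes include Adipoq, Plin1 and Fabp4. They summed to 2098 TPM in replicate 2 and 243 TPM in replicate 1, a ratio of 8.62. All 9 were called higher in replicate 2 (background 2.39%). Of 6 brown adipocyte markers, 5 could be tested and all 5 were called higher in replicate 2 (background 2.39%). The 6 summed to 282 TPM in replicate 2 and 27.0 TPM in replicate 1. The defining brown fat gene Ucp1 stood at 80.6 TPM in replicate 2 and 0.14 TPM in replicate 1, and no marker of either list was at 0. The white adipocyte median log2 ratio was 3.01, and that of Pdk4 was 2.77. The part of these cells in the Pdk4 difference was not tested. Skeletal muscle, another tissue that expresses Pdk4, had 5 markers that summed to 4.39 TPM in replicate 2 and 2.68 TPM in replicate 1. All 5 lay under the minimum of 100 counts, and the part of muscle in the Pdk4 difference was not tested either.

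The paralogs of Pdk4 differed less. Pdk1 stood at 15.0 TPM in replicate 2 and 9.30 TPM in replicate 1, a scaled count ratio of 1.59 (1.46 to 1.74). Pdk2 stood at 24.75 TPM in replicate 2 and 15.9 TPM in replicate 1, a ratio of 1.54 (1.41 to 1.68). Pdk3 stood at 8.41 TPM in replicate 2 and 8.40 TPM in replicate 1. Pdk4 in TPM was thus 1.25 times Pdk2 in replicate 2 and 0.272 times Pdk2 in replicate 1, so that the more abundant of both kinases differed between the glands.

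The 3 genes that restrain growth signalling had the lowest mean TPM and lay close between the animals. Cdkn1a encodes p21, an inhibitor of cyclin-dependent kinases, and stood at 10.9 TPM in replicate 2 and 10.5 TPM in replicate 1, a scaled count ratio of 0.927 (0.820 to 1.05; chromosome 17, 29090976 to 29100727, plus strand). Ddit4 encodes REDD1, an inhibitor of the growth kinase complex mTORC1, and stood at 10.4 TPM in replicate 2 and 8.43 TPM in replicate 1, a ratio of 1.13 (0.985 to 1.29; chromosome 10, 59949669 to 59951834, minus strand). Errfi1 encodes MIG6, an inhibitor of the epidermal growth factor receptor, and stood at 10.4 TPM in replicate 2 and 8.05 TPM in replicate 1, a ratio of 1.07 (0.960 to 1.19; chromosome 4, 150853919 to 150868892, plus strand). All 3 intervals included equality.

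Their leading transcripts were the same in both libraries. Cdkn1a-201 took 81.8% of the gene's TPM in replicate 2 and 88.2% in replicate 1. Errfi1-201 took 81.8% in replicate 2 and 92.9% in replicate 1, and its shorter processed transcript Errfi1-203 the remainder by RSEM. By kallisto Cdkn1a-201 took 66.9% in replicate 2 and 71.5% in replicate 1, and Errfi1-201 took 68.4% in replicate 2 and 69.6% in replicate 1, so the gap of Errfi1-201 between the animals was found by RSEM alone. Ddit4 has 1 annotated transcript. Cdkn1a is also a p53 target. Of 10 other genes of the p53 pathway, 1 was called higher in replicate 2, Phlda3 (background 2.39%), and 0 lower (background 1.15%). Phlda3, an inhibitor of the kinase Akt, stood at 30.0 TPM in replicate 2 and 7.70 TPM in replicate 1, a scaled count ratio of 3.57 (3.14 to 4.07). The other abundant genes of that list differed little between the animals. The cell death gene Bax stood at 34.4 TPM in replicate 2 and 32.6 TPM in replicate 1, and Ccng1, a cyclin, at 30.8 TPM in replicate 2 and 25.9 TPM in replicate 1. Mdm2, which targets p53 for degradation, stood at 26.8 TPM in replicate 2 and 27.6 TPM in replicate 1, and Trp53, the p53 gene, at 25.7 TPM in replicate 2 and 24.6 TPM in replicate 1. Among the inhibitors related to Cdkn1a, Cdkn1c was the most abundant, at 78.35 TPM in replicate 2 and 90.25 TPM in replicate 1, and Cdkn1b stood at 16.35 TPM in replicate 2 and 12.2 TPM in replicate 1. The Ddit4 relative Ddit4l stood at 0.62 TPM in replicate 2 and 0.65 TPM in replicate 1, under the detection limit.

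The receptor side of the pathway was present. The glucocorticoid receptor gene Nr3c1 stood at 16.6 TPM in replicate 2 and 10.15 TPM in replicate 1, a scaled count ratio of 1.56 (1.46 to 1.67). The mineralocorticoid receptor gene Nr3c2, whose protein also binds corticosterone, stood at 9.77 TPM in replicate 2 and 6.42 TPM in replicate 1, a ratio of 1.40 (1.27 to 1.55). Both receptors were higher in replicate 2 by less than 2-fold, while Sgk1, a target of both, was lower there. Hsd11b1, the enzyme that regenerates active hormone, stood at 30.1 TPM in replicate 2 and 23.1 TPM in replicate 1. Hsd11b2, which inactivates it, stood at 0.21 TPM in replicate 2 and 0.31 TPM in replicate 1, under the detection limit.

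Genes for the chaperone Hsp90 and its partners belong to the same list as the receptors. Of the 17 genes listed for receptors, hormone metabolism and cofactors, 16 could be tested, of which 0 were called higher (background 2.39%) and 2 lower (background 1.15%). The list's median log2 ratio was -0.20, against 0.0013 over all genes. The 2 were Hsp90aa1, at 125.05 TPM in replicate 2 and 291 TPM in replicate 1 (ratio 0.401, 0.392 to 0.411), and Stip1, the link between Hsp70 and Hsp90, at 48.1 TPM in replicate 2 and 92.2 TPM in replicate 1 (ratio 0.478, 0.456 to 0.5001). Scaled by spike-ins, only 1 of both, Hsp90aa1, was still past the 2-fold limit. Hsp90ab1 was lower at the 1.5-fold limit only (background 3.90%) and stood at 648 TPM in replicate 2 and 979 TPM in replicate 1. The corepressor gene Ncor1 was also among the most abundant, at 93.75 TPM in replicate 2 and 97.8 TPM in replicate 1. Fkbp4, the cochaperone that competes with Fkbp5, was also lower at the 1.5-fold limit only. It stood at 76.2 TPM in replicate 2 and 112 TPM in replicate 1. With Fkbp5 nearly level, the ratio of Fkbp5 to Fkbp4 in TPM was 0.536 in replicate 2 and 0.357 in replicate 1.

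**Figure D4:**
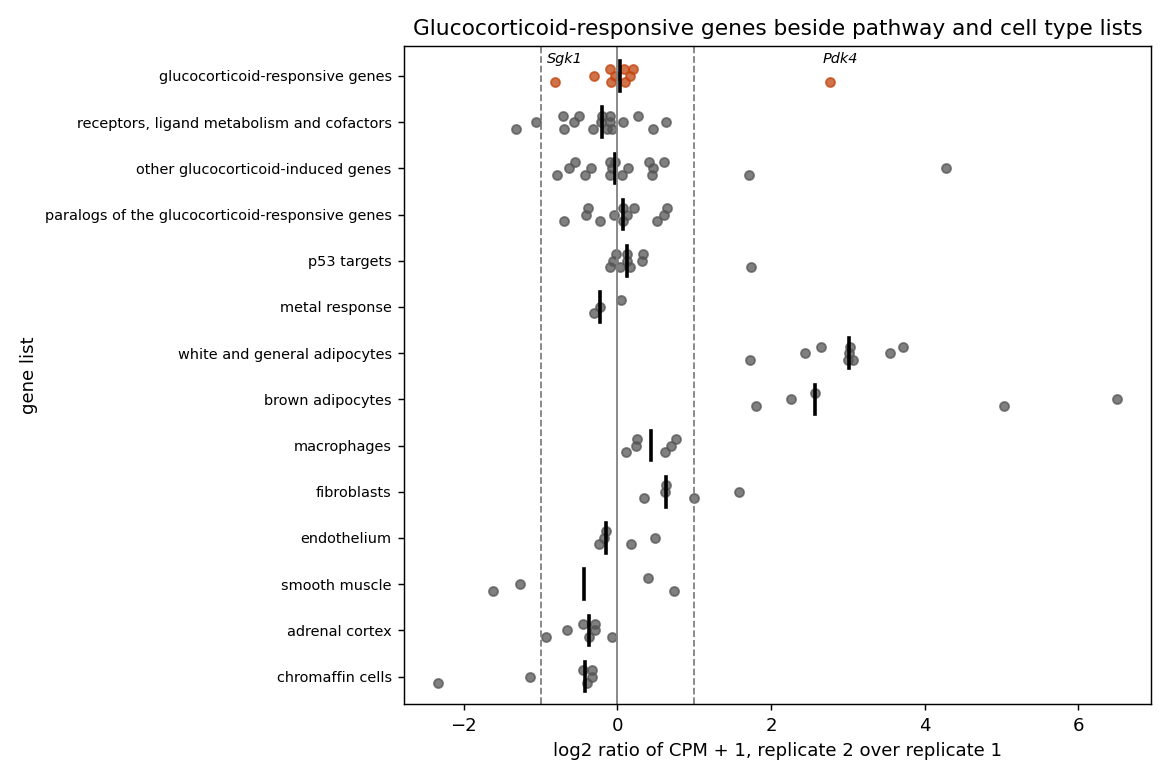
Log2 ratio of CPM + 1, replicate 2 over replicate 1, for each gene with a mean of at least 10 counts, by list, with the 10 glucocorticoid-responsive genes in the top row. Black bars are medians, and dashed lines mark a log2 ratio of 1 in either direction. The adipocyte rows lie to the right at a median of 3.01 for white and 2.57 for brown markers, where Pdk4 also lies.

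Other genes known to be induced by glucocorticoids were listed beside the 10. Of 18, 16 could be tested, of which 2 were called higher in replicate 2 (background 2.39%) and 0 lower (background 1.15%). The list's median log2 ratio was -0.03, with a sign that depended on the setting, for instance 0.05 with spike-in scaling. The 2 were Pck1, an enzyme that controls glucose synthesis and also feeds glycerol synthesis, at 121.9 TPM in replicate 2 and 5.44 TPM in replicate 1 (ratio 20.8, 18.8 to 23.1), and Anxa1, an anti-inflammatory phospholipid-binding protein, at 17.7 TPM in replicate 2 and 4.31 TPM in replicate 1 (ratio 3.64, 3.10 to 4.29). Pck1 is also abundant in fat cells, whose markers moved the same way, and their part in either difference was not tested. The most abundant of the list was Glul, glutamine synthetase, at 475 TPM in replicate 2 and 438 TPM in replicate 1. Rhob, a small GTPase, stood at 90.9 TPM in replicate 2 and 87.8 TPM in replicate 1. The transcription factor gene Cebpb stood at 40.4 TPM in replicate 2 and 54.5 TPM in replicate 1.

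Of the 14 paralogs of the 10 genes, 10 had enough counts to be tested. Of these, 0 were called in either direction (background 3.54%). Under the 1.5-fold limit 2 were higher (background 6.19%) and 1 lower (background 3.90%). Tsc22d1, the nearest in kind to Tsc22d3, was far more abundant, at 967 TPM in replicate 2 and 617 TPM in replicate 1, a scaled count ratio of 1.43 (1.41 to 1.45). Tsc22d4 stood at 39.4 TPM in replicate 2 and 32.8 TPM in replicate 1. Tsc22d2 stood at 16.1 TPM in replicate 2 and 16.0 TPM in replicate 1. Tsc22d3 was thus 0.0398 times Tsc22d1 in replicate 2 and 0.0532 times in replicate 1.

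The tissue label held against its markers. The 7 markers of the adrenal cortex summed to 18099 TPM in replicate 2 and 21459 TPM in replicate 1. None was called (background 3.54% in either direction). All 7 had a log2 ratio below 0 (median -0.37), and 2, Star and Nr5a1, were lower at the 1.5-fold limit (background 3.90%). The 6 chromaffin cell markers summed to 2218 TPM in replicate 2 and 3117 TPM in replicate 1. Th and Pnmt among them were called lower in replicate 2 (background 1.15%). Macrophage markers summed to 301 TPM in replicate 2 and 190 TPM in replicate 1, fibroblast markers to 235 TPM in replicate 2 and 131 TPM in replicate 1, and smooth muscle markers to 66.2 TPM in replicate 2 and 117 TPM in replicate 1. Of these, Col1a1 and Col3a1 were called higher (background 2.39%) and Acta2 and Tagln lower (background 1.15%) in replicate 2. The smooth muscle markers Myh11 and Rgs5 had scaled count ratios of 1.35 and 1.68 and were not called. Endothelial markers summed to 247 TPM in replicate 2 and 243 TPM in replicate 1. Kidney and T cell markers summed to under 2 TPM in each library, and liver markers to 12.1 TPM in replicate 2 and 10.1 TPM in replicate 1. What these cells add to the levels of the 10 genes was not tested.

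Transcript shares were stable in kind for most of the 10 genes. They have 53 annotated transcripts, of which 37 had a level above 0 in both libraries by RSEM. The leading transcript was the same in both libraries for 9 of 10 genes by RSEM and for 9 by kallisto, and the same in all 4 tables for 7. Each of these counts includes Ddit4, which has 1 annotated transcript and so could not differ. The 3 without a common leader were Mt2, Sgk1 and Tsc22d3.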

How the data were processed

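Total RNA of whole adrenal glands from 2 male mice was sequenced, and the directional kit keeps the strand of each read, per the labels. The deposited expected counts (estimated counts per gene and transcript, not normalized), the deposited TPM and the deposited percent that each transcript takes of its gene's TPM carry RSEM column names, per the file headers. Posterior SDs of the count and credibility bounds stand beside them as deposited. A further deposited table gives estimated counts and TPM under kallisto column names. The assembly was mm10 with GENCODE M21, per the text accompanying the deposited tables; software versions were not given in the sources used here.

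TPM covers all RNA, and Rn7s1 and Rn7s2 took 35.9% of it in replicate 2 and 40.0% in replicate 1. Annotated counts summed to 33987434 in replicate 2 and 29994901 in replicate 1, and 3 counts, the limit that a count of 0 allows, were 0.0883 CPM in replicate 2 and 0.100 CPM in replicate 1. Both libraries differed far beyond sampling noise (chi-square per degree of freedom 53.2 over 18181 genes). That value cannot tell separate animals from separate preparations of the same animal. The libraries were counted as separate samples because the labels give them different animal numbers. The 26248 entries named by a bare number (6 counts in replicate 2 and 5 counts in replicate 1) were left out.

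Counts were rounded and scaled with TMM from edgeR 4.0.16 (R 4.3.3), with DESeq2 1.42.0 size factors as an alternative. Folds are replicate 2 over replicate 1 with exact conditional binomial 95% intervals, which cover counting error only, as the reads carry no molecular identifiers and need not be independent molecules. Log2 ratios are of CPM + 1. With 1 animal on each side there was no test, and the smallest p of an exact paired permutation would be 0.5. The computation was tested on simulated data. The 10 genes and all lists were chosen with earlier results of these data known. Named were all 10 genes and, of the pathway lists, the 4 most abundant of each (except 1 that is not reported here), every called gene, both receptors, Hsd11b1, Hsd11b2 and the paralogs. Cell type markers were summed by list, and those named were chosen after their values were seen.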

Additional observations from a re-analysis of the deposited data

How the results depend on the processing

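No called value changed direction under the alternatives run, but 3 values near 0 crossed it. These were the log2 ratio of Fkbp5, the median of the 10 genes (0.03, and -0.03 without Pdk4) and the median of the other induced genes (-0.03, against 0.02 at a minimum of 100 counts or with total counts, 0.05 with spike-ins and 0.01 by kallisto). With TPM rescaled to nuclear protein-coding genes the median of the 10 genes was 80.1 TPM, since structural RNAs then drop out of the total. Leaving out each library in turn gave a median of 25.4 to 34.65 TPM. A 1.5-fold limit added 1 lower gene, Sgk1, and gave 795 higher (6.19%) and 501 lower (3.90%) of 12853 nuclear genes. Of 16 tested receptor and cofactor genes it gave 1 higher, Nr3c1, and 4 lower, Hsp90aa1, Stip1, Hsp90ab1 and Fkbp4. Of 16 tested other induced genes it gave 3 higher, Pck1, Anxa1 and Angptl4, and 1 lower, Dusp1. Of 10 tested paralogs 2 were higher and 1 lower. A minimum of 10 counts gave 865 higher and 712 lower nuclear genes, and no minimum 1175 higher and 1027 lower, with 1 lower other induced gene (Lcn2) in each. Scaling by spike-ins left 1 lower receptor and cofactor gene. The other scalings shifted all log2 ratios by at most 0.0820 from TMM, the largest with spike-ins. Of the alternative values for levels and counts over the lists, 115 stayed within the limits and 16 moved. For single genes and transcripts 151 stayed and 34 moved, the moved values being levels by kallisto, by posterior mean or on the protein-coding scale, transcript shares, and the log2 ratios of Fkbp5 and Sgk1 under spike-in scaling. The share of expected counts and the set without Pdk4 were chosen after seeing the data. With 2 glands, spread between animals is poorly known. No paired analysis was possible because there is 1 group.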
